A study of Mus musculus with 6 samples.

Results

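The expression of 10 genes of the hypoxia response and of glycolysis, *Hif1a*, *Egln3*, *Hk2*, *Pfkfb3*, *Aldoa*, *Pgk1*, *Ldha*, *Adm*, *Ndrg1* and *Bnip3*, was compared between colons of obesity-prone (OP) mice and colons of mice resistant to obesity (OR). The genes were taken by symbol, and all 10 were among the 17778 genes listed. None of the 10 differed between the groups beyond the spread between mice: 0 of 10 passed the test, and the values of OP and OR mice overlapped in all 10. Of all 13520 genes tested, 0.0222% passed and 8.44% had no overlap, so these counts do not set the 10 apart. RNA of colon tissue had been sequenced in 3 OP and 3 OR mice, each a separate library, and the segment of colon taken is not stated. All 6 were male wild-type C57BL/6J mice, 21 weeks old, that had received a high-fat diet (60% fat) during 16 weeks. OP mice came from the 10 mice with the highest weight gain and OR mice from the 10 with the lowest among 42 mice on the diet, so the groups differ by an outcome and not by a treatment given to one of them, and no mouse on another diet was in the comparison.

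When oxygen is sufficient, prolyl hydroxylases mark the alpha subunits of the hypoxia-inducible factors (HIF), and the von Hippel-Lindau protein directs them to degradation. When oxygen is low, the stabilised subunits pair with ARNT and bind DNA at a short core motif, and glucose transporters, glycolytic enzymes, the vascular growth factor VEGFA and mitophagy receptors are induced. HIF activity is controlled mainly through protein stability, which RNA values do not show. The colon surface epithelium lies next to a lumen almost without oxygen and is known for a HIF response under healthy conditions.

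The upstream sequences of 4 of the genes are shown because they hold the core motif in different numbers and arrangements, while the expression of the genes lay on both sides of equality between the groups. Each is the 250 bases before the annotated start site, 5' to 3' on the gene's strand, from RefSeq on build GRCm38.p6, an older build than the one of the expression values. Capitals mark ACGTG or GCGTG on either strand, with an added C where overlapping matches on both strands form CACGTG. The positions are chr7:46845554-46845803 (plus strand) for *Ldha*, chrX:106186850-106187099 (plus strand) for *Pgk1*, chr7:110627407-110627656 (plus strand) for *Adm* and chr7:138909507-138909756 (minus strand) for *Bnip3*.
Ldha: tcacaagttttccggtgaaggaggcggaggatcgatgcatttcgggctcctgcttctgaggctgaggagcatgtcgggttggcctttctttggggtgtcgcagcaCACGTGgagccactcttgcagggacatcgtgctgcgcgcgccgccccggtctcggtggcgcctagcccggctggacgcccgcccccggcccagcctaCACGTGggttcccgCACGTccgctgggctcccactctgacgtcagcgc
Pgk1: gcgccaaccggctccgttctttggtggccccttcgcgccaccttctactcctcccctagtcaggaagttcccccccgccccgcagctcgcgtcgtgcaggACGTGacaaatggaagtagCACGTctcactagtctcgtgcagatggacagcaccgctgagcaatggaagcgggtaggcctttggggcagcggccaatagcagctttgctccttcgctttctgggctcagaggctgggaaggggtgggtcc
Adm: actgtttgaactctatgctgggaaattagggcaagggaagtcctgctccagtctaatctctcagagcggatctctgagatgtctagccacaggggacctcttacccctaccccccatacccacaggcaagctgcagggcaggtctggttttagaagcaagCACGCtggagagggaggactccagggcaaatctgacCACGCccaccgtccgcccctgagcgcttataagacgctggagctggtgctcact
Bnip3: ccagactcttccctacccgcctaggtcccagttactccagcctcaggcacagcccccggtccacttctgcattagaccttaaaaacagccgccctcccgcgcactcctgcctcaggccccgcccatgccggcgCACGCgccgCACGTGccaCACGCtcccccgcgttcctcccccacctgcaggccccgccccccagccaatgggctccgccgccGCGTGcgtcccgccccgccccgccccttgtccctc

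*Ldha* held the palindrome CACGTG at 2 places and a separate core beginning 34 bases before the start site. The palindrome is counted on both strands and is also the E-box bound by other factors. *Pgk1* held 2 separate cores. *Adm* held 2 cores of the GCGTG form, and *Bnip3* held 5 matches, which count its CACGTG on both strands. RefSeq windows, each from 250 bases before to 50 bases after a start site, were found for 9 of the 10 genes, and *Ndrg1* had no entry. The first window held a core in 8 of the 9 genes, *Aldoa* being without one, against 61.9% of 10760 tested genes with a window and 43.8% of all 32851 windows. The median GC content was 67.3% in the first windows of the 9 genes and 60.7% in those of the tested genes, and its part in the motif count was not tested. A match describes letters and is not a measured binding site.

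Expression is given as FPKM (fragments per kilobase of transcript, scaled to the mapped fragments of the library), which are scaled by transcript length. The groups were compared by limma-trend on log2(FPKM + 1). The fit covered 13520 genes that reached 0.5 FPKM in 3 or more mice, among them all 10. The log2 fold changes below are OP minus OR on this scale, on which the change of a weakly expressed gene appears too small, and the q-values are Benjamini-Hochberg adjusted over all genes tested. A call needed q below 0.2 and a fold change of 1.2 or more, or of 0.83 or less, and 0.0222% of all genes tested were called, 0 higher and 3 lower in OP mice. At an unadjusted p below 0.05, also 0 of the 10 genes passed, where 4.03% of all genes did (0.503% higher and 3.53% lower in OP mice). The groups did not overlap in 8.44% of all genes (OP above OR in 1.63%, OP below OR in 6.81%) and in 0 of the 10. For a single gene, the two-sided exact permutation test has 20 arrangements, and its smallest p is 0.1. The read depth is unknown, and counting error could not be separated from the spread between mice. The OP mouse 1 library stood apart, with 54.4% of all genes at their lowest and 10.1% at their highest value, and 9.88% of its total in its 10 highest genes (6.48% to 8.77% in the other mice). With median-of-ratios scaling, which corrects for such a shift, the median over all genes shifted from -0.10 to 0.01 (log2).

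The mean levels of the 10 genes ran from 2.45 FPKM for *Pfkfb3* to 919 FPKM for *Aldoa*. The log2 fold change was above 0 in 8 genes and below 0 in *Pfkfb3* and *Bnip3*, with a median of 0.21. Without OP mouse 1 the median was 0.0753 with 6 of 10 above 0, without OP mouse 3 it was 0.503, and without OR mouse 2 it was 0.369. Of all genes, 29.9% were above 0, and 51.5% with median-of-ratios scaling, which left 8 of the 10 above 0 and gave them a median of 0.35. The q-values of the 10 lay between 0.945 and 0.971 (limma-trend), and each 95% interval held 0.

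**Figure D1:**
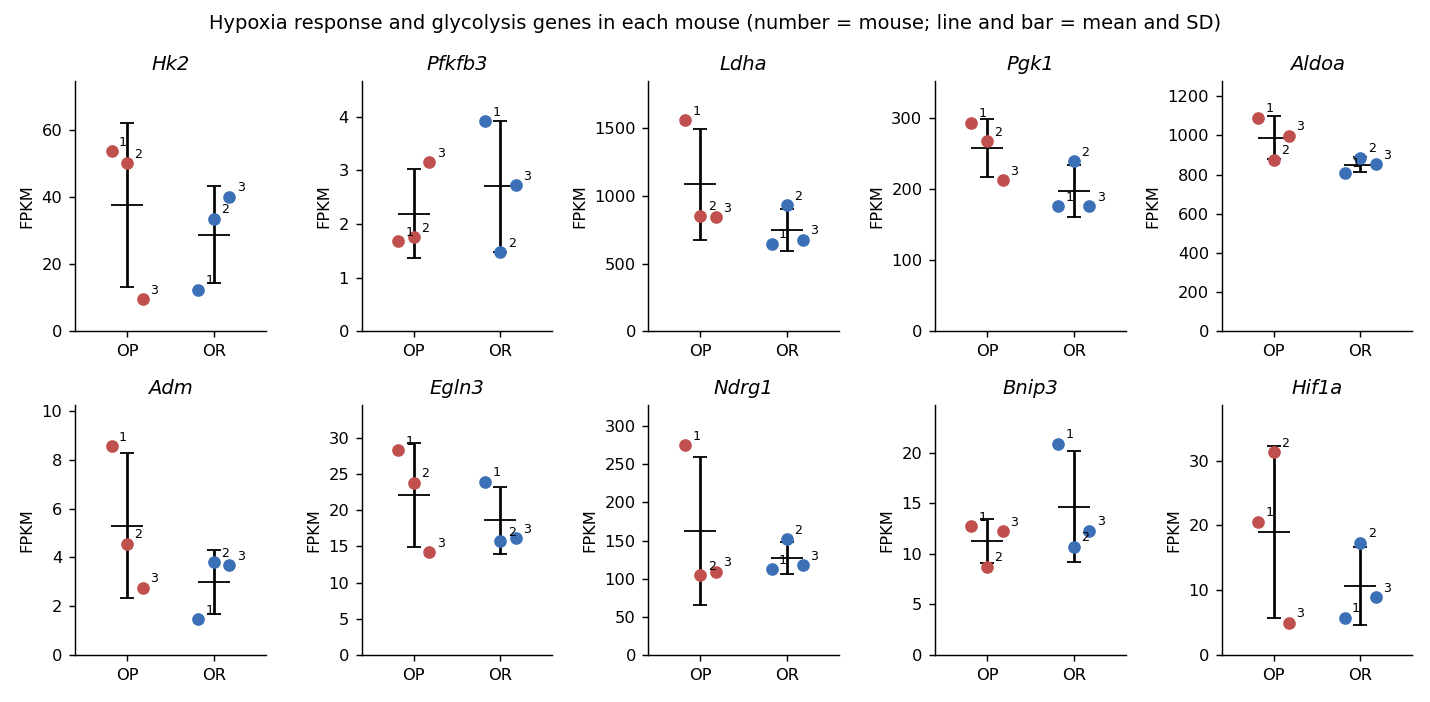
FPKM of the 10 genes in each of 3 OP mice (red) and 3 OR mice (blue), numbered by mouse, with the group mean (long line) and SD (bar); each vertical axis starts at 0. The groups overlap in all 10 genes, and OP mouse 1 has the highest value of *Hk2*, *Ldha*, *Pgk1*, *Aldoa*, *Adm*, *Egln3* and *Ndrg1*.

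*Hif1a* encodes the oxygen-regulated alpha subunit of HIF-1. Its values were 20.6, 31.3 and 4.96 FPKM in OP mice 1, 2 and 3 and 5.74, 17.4 and 8.92 FPKM in OR mice 1, 2 and 3. OP mice 1 and 2 and OR mouse 2 were high, and OP mouse 3 was the lowest of all, so that the spread within each group exceeded the difference between the groups. The log2 fold change was 0.59 (SE 0.64, 95% interval -0.91 to 2.08, q = 0.945 by limma-trend), an interval that reaches from a 0.533-fold to a 4.24-fold level. With each mouse left out in turn it ran from 0.084 without OP mouse 2 to 1.304 without OP mouse 3, the latter with an unadjusted p of 0.0240 and q = 0.464 (limma-trend), and it was 0.38 without OP mouse 1, 0.25 without OR mouse 1 and 0.98 without OR mouse 2. Reads of *Hif1a* may be shared with 2 overlapping transcripts of the annotation, one of them antisense, and the strand setting of the counting was not stated.

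*Epas1*, which encodes the alpha subunit of HIF-2, had 29.5 ± 8.53 FPKM (SD, n = 3) in OP and 32.0 ± 9.35 FPKM (SD, n = 3) in OR mice. *Hif3a* had means of 0.807 and 0.933 FPKM in OP and OR mice. *Hif1a* made up 50.4%, 47.9% and 11.9% of the summed FPKM of these 3 alpha subunits in OP mice 1, 2 and 3 and 14.2%, 43.2% and 17.7% in OR mice 1, 2 and 3. *Hif1a* and *Epas1* were thus near equal in OP mice 1 and 2 and in OR mouse 2, while *Epas1* made up at least 80.7% in the other 3 mice. The difference of the shares was 11.7 percentage points with an exact permutation p = 0.5 (two-sided, 3 against 3 mice), or 0.84 after adjustment over the 7 families examined. The difference was 4.88 points without OP mouse 1, 24.2 points without OP mouse 3 and 20.8 points without OR mouse 2, and 6.13 to 8.06 points without any one of the others.

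**Figure D2:**
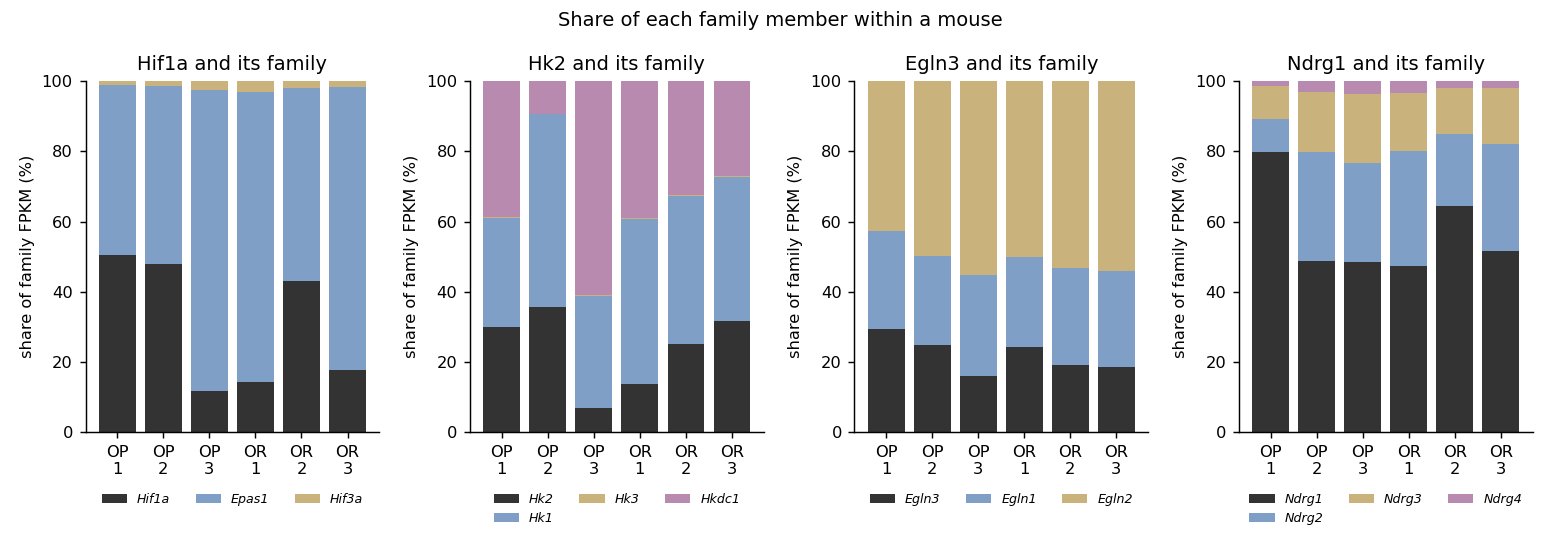
Share of each gene, in percent of the summed FPKM of its family, in each of the 6 mice, for the families of *Hif1a*, *Hk2*, *Egln3* and *Ndrg1* (black at the base). The *Hif1a* share lies between 43.2% and 50.4% in OP mice 1 and 2 and OR mouse 2 and between 11.9% and 17.7% in the other 3 mice.

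*Egln3* encodes a prolyl hydroxylase that marks HIF alpha subunits and is itself induced by HIF. It had 28.3, 23.8 and 14.2 FPKM in OP mice 1, 2 and 3 and 23.97, 15.7 and 16.2 FPKM in OR mice 1, 2 and 3. The highest and the lowest value were both from OP mice. This left a log2 fold change of 0.21 (SE 0.28, 95% interval -0.44 to 0.86, q = 0.945 by limma-trend). It was 0.012 without OP mouse 1, 0.48 without OP mouse 3, 0.40 without OR mouse 1 and between 0.11 and 0.13 without any one of the others. *Egln1* and *Egln2*, the other prolyl hydroxylases, spread less, from 22.8 to 26.7 FPKM and from 41.0 to 49.5 FPKM. *Egln3* made up between 15.97% and 29.5% of the 3 hydroxylases and *Egln2* between 42.7% and 55.1%.

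The oxygen-sensing genes outside the 10 comprised 18 genes, all tested: HIF subunits, hydroxylases, the von Hippel-Lindau complex and coactivators, and besides these *Cited2*, *Hsp90aa1*, *Os9* and *Rack1*. Of these, 0 passed an unadjusted p of 0.05 in either direction, and their median log2 fold change was -0.09. It was 0.03 with median-of-ratios scaling, and the number above 0 went from 3 to 12, while with a mouse left out the median ran from -0.18 to -0.026, so no direction can be given. *Elob*, which encodes elongin B of that complex, had the smallest p of the list, with 315 FPKM in OP and 277 FPKM in OR mice (log2 fold change 0.18, unadjusted p = 0.150, q = 0.945 by limma-trend). *Cul2*, *Rbx1* and *Cited2* followed, with log2 fold changes of -0.25, -0.19 and 0.31. *Rack1* had the highest level, with 756 FPKM in OP and 888 FPKM in OR mice. *Vhl* had 9.86 FPKM in OP and 10.7 FPKM in OR mice, *Hif1an*, the asparaginyl hydroxylase gene, had 18.5 FPKM in both groups, and *Arnt* had 14.03 FPKM in OP and 14.6 FPKM in OR mice.

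*Hk2* encodes hexokinase 2, which phosphorylates glucose at the entry of glycolysis. It had 53.7, 50.1 and 9.51 FPKM in OP mice 1, 2 and 3 and 12.4, 33.6 and 40.1 FPKM in OR mice 1, 2 and 3. OP mouse 3 and OR mouse 1 were low and the other 4 mice were high, with a 5.64-fold range over the 6 mice. The log2 fold change was 0.21 (SE 0.69, 95% interval -1.41 to 1.82, q = 0.971 by limma-trend). Its sign turned when OP mouse 1, OP mouse 2 or OR mouse 1 was left out, with values of -0.21, -0.16 and -0.29.

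The related hexokinases *Hk1* and *Hkdc1* did not follow one order over the mice. *Hk1* ranged from 41.9 to 76.5 FPKM, and *Hkdc1* ranged from 13.1 FPKM in OP mouse 2 to 81.8 FPKM in OP mouse 3, the mouse with the lowest *Hk2*. *Hk2* made up 7.07% of the summed FPKM of *Hk1*, *Hk2*, *Hk3* and *Hkdc1* in OP mouse 3 and between 13.9% and 35.8% in the others, with an exact permutation p = 1 between the groups (two-sided). *Hk3* was below the filter, with at most 0.63 FPKM.

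*Hif1a* was set beside the colon epithelium list, of which the centred median and the summed level did not give the same order of the mice. The median of the 12 markers, each centred on its own mean over the 6 mice on the log2 scale, was 0.19, 0.29 and -0.23 in OP mice 1, 2 and 3 and -0.17, 0.23 and -0.01 in OR mice 1, 2 and 3. The centred *Hif1a* values were 0.72, 1.301 and -1.14 in OP mice and -0.96, 0.48 and -0.40 in OR mice. All 12 markers were detected, 0 of the 12 passed an unadjusted p of 0.05 between the groups (limma-trend), and their summed FPKM was 24908.5, 12803.5 and 11771.9 in OP mice 1, 2 and 3 and 12561.5, 25589.8 and 15340.7 in OR mice 1, 2 and 3. *Car1* had the highest mean level of the 12 markers and weighed heavily in these sums. Its values were 14584.5, 1054 and 4836 FPKM in OP mice 1, 2 and 3. In OR mice 1, 2 and 3 they were 5255, 15723 and 6339 FPKM. *Slc26a3*, *Aqp8*, *Krt20*, *Vil1*, *Epcam* and *Krt8* were higher in OP mice 1 and 2 and OR mouse 2 than in every other mouse. *Hif1a* showed the same split, whereas *Car1*, *Muc2*, *Cdx1*, *Cdx2*, *Cdh1* and *Krt19* did not. The markers were compared in this way after their values had been seen. OP mouse 2, with the highest *Hif1a* and the lowest *Car1*, had a sum below that of OR mouse 3. *Hk2* was also high in OR mouse 3, where the marker median was near 0. The part of cell composition in the values of *Hif1a* and *Hk2* was not tested, and in whole tissue, fewer cells of a type and less RNA per cell cannot be told apart.

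**Figure D3:**
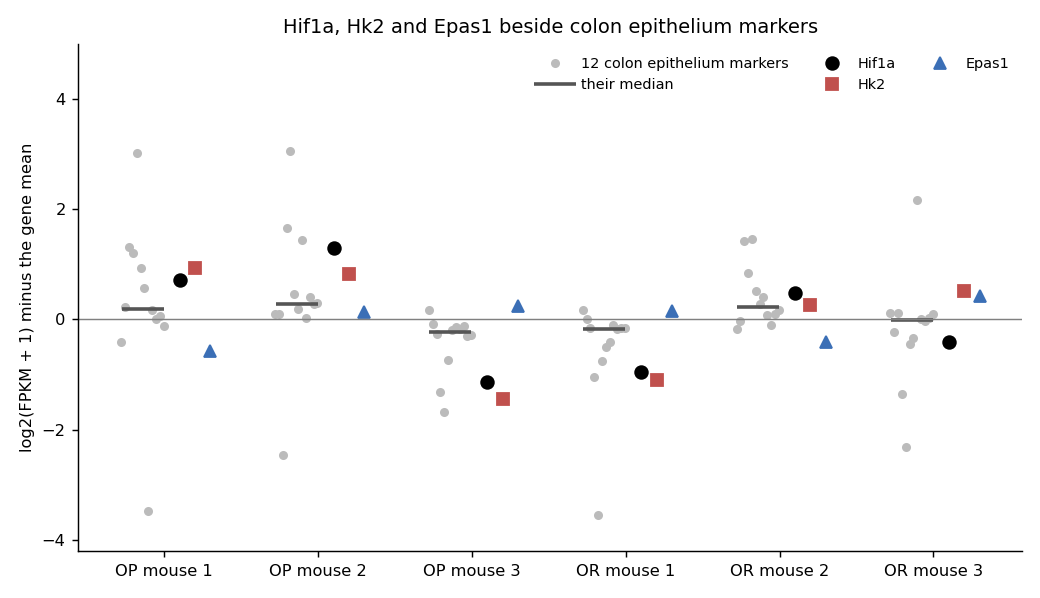
log2(FPKM + 1) minus the gene's mean over the 6 mice for *Hif1a*, *Hk2*, *Epas1* and the 12 colon epithelium markers (grey points, with their median as a line), by mouse. *Hif1a* and the marker median are both above 0 in OP mice 1 and 2 and OR mouse 2, and both below 0 in the other 3 mice.

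*Pfkfb3* encodes a bifunctional enzyme that makes fructose 2,6-bisphosphate, the activator of phosphofructokinase. It had 1.68, 1.75 and 3.15 FPKM in OP mice 1, 2 and 3 and 3.92, 1.47 and 2.72 FPKM in OR mice 1, 2 and 3. It was highest in OR mouse 1, and the log2 fold change was -0.19 (SE 0.31, 95% interval -0.90 to 0.53, q = 0.952 by limma-trend). Without OR mouse 1 it was 0.05. *Pfkfb3* was a minor member of its family, with 6.19% to 16.9% of the FPKM of *Pfkfb1* to *Pfkfb4*, and *Pfkfb2* made up between 56.3% and 64.8%. *Pfkfb4* had 8.08 FPKM in OP and 5.31 FPKM in OR mice (log2 fold change 0.54, unadjusted p = 0.0837 by limma-trend), and *Pfkfb1* was below 1.1 FPKM in every mouse.

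*Aldoa* encodes aldolase A, which splits fructose 1,6-bisphosphate. It had 1091, 875 and 999 FPKM in OP mice 1, 2 and 3 and 809.8, 887 and 854 FPKM in OR mice 1, 2 and 3. The values spread little, with a 1.35-fold range, and only OP mouse 2 fell within the range of the OR mice. The log2 fold change was 0.21 (SE 0.15, 95% interval -0.14 to 0.57, q = 0.945 by limma-trend), so that a level above 1.48-fold in OP mice lies outside the interval. It was 0.14 without OP mouse 1. *Aldoc* had 3.46 FPKM in OP and 4.20 FPKM in OR mice. An exon of *Aldoa* overlaps a gene on the other strand, and values of *Aldoa*, *Pgk1* and *Ldha* may be affected by reads shared with pseudogene copies.

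*Pgk1* encodes phosphoglycerate kinase, the first step of glycolysis that makes ATP. It had 294, 268 and 213 FPKM in OP mice 1, 2 and 3 and 176, 239.6 and 176 FPKM in OR mice 1, 2 and 3. OR mouse 2 lay above OP mouse 3, and otherwise the OP mice were higher. Its log2 fold change was 0.39 (SE 0.18, 95% interval -0.04 to 0.82), with an unadjusted p of 0.0691 and q = 0.945 (limma-trend), the smallest unadjusted p among the 10 genes. The unadjusted p was 0.0286 without OP mouse 3, 0.0241 without OR mouse 2 and 0.0309 with sample weights, with q-values of 0.484, 0.853 and 0.797 (limma-trend). *Pgk2*, the testis form, was listed at 0 in 5 mice.

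*Ldha* encodes the A subunit of lactate dehydrogenase, which reduces pyruvate to lactate. It had 1560.1, 855 and 842 FPKM in OP mice 1, 2 and 3 and 646, 929 and 678 FPKM in OR mice 1, 2 and 3. OP mouse 1 was far above the other 5 mice, and OR mouse 2 was above OP mice 2 and 3. The log2 fold change was 0.49 (SE 0.28, 95% interval -0.17 to 1.14, q = 0.945 by limma-trend), and it was 0.19 without OP mouse 1 and between 0.39 and 0.65 without any one of the others. *Ldhb*, which encodes the other main subunit, had its lowest value in OP mouse 1, and *Ldha* made up between 96.3% and 99.3% of both.

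**Figure D4:**
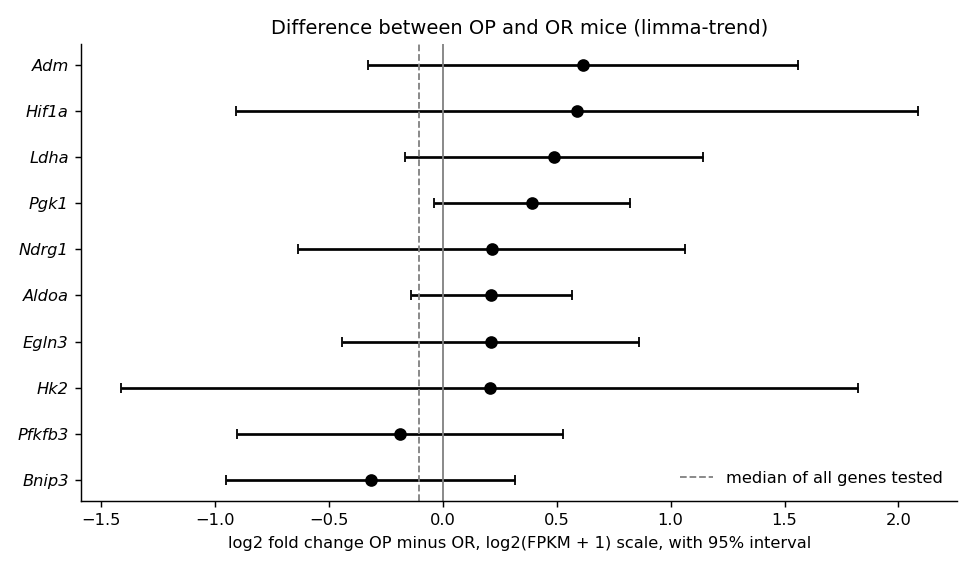
Log2 fold change of OP minus OR mice on the log2(FPKM + 1) scale for the 10 genes, with the 95% interval from limma-trend, ordered by size; the dashed line is the median of all genes tested, -0.10. Each interval holds 0, and the intervals of *Hk2* and *Hif1a* are the widest.

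The list of other enzymes and transporters of glycolysis comprised 25 genes, of which 22 passed the filter. Of the 22, 18 were above 0, against 29.9% of all genes, and also 18 with median-of-ratios scaling, against 51.5%. An unadjusted p of 0.05 was passed by 2 genes higher in OP mice (0.503% of all genes) and by 0 lower (3.53% of all genes). None of the 22 was called. The median log2 fold change of the 22 was 0.22, and 0.35 with median-of-ratios scaling. *Pkm*, the pyruvate kinase gene, had 663, 571 and 530.3 FPKM in OP mice and 430.2, 487 and 426 FPKM in OR mice, with no overlap (log2 fold change 0.39, unadjusted p = 0.0303, q = 0.945 by limma-trend). *Slc16a3*, a lactate exporter, had 6.79, 5.36 and 1.73 FPKM in OP mice and 1.57, 2.11 and 1.10 FPKM in OR mice (log2 fold change 1.00, unadjusted p = 0.0373, q = 0.945 by limma-trend). *Pgam1* had 156 FPKM in OP and 134 FPKM in OR mice, again with no overlap, and *Gapdh*, the highest of the list, had 1649 FPKM in OP and 1374 FPKM in OR mice. With *Tpi1* and *Pfkfb2*, 4 of the 22 had every OP mouse above every OR mouse (1.63% of all genes). *Pfkfb1* was the 1 gene with every OP mouse below every OR mouse (6.81% of all genes).

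The isozymes of 10 steps of glycolysis were then summed within each mouse, the hexokinase step over *Hk1*, *Hk2*, *Hk3* and *Hkdc1*. Aldolase was not among these steps, and lactate dehydrogenase, which acts after pyruvate, was. This grouping was made after the values of the single genes had been seen, so it is a description. The two-sided exact permutation p of the steps lay between 0.1 and 0.4. After Benjamini-Hochberg adjustment over the 10 steps it lay between 0.25 and 0.4. The OP mean was higher at 10 of 10 steps, by 1.10-fold at phosphofructokinase to 1.43-fold at lactate dehydrogenase, and it was higher at all 10 steps with each mouse left out in turn and with median-of-ratios scaling. Every OP mouse exceeded every OR mouse at 4 steps, hexokinase, triose-phosphate isomerase, phosphoglycerate mutase and pyruvate kinase, against 1.63% of single genes, but with median-of-ratios scaling at 0 steps. OP mouse 1 was the highest at 8 steps and OR mouse 1 the lowest at 8 steps, and the steps share the same 6 libraries, so they are not independent of each other.

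**Figure D5:**
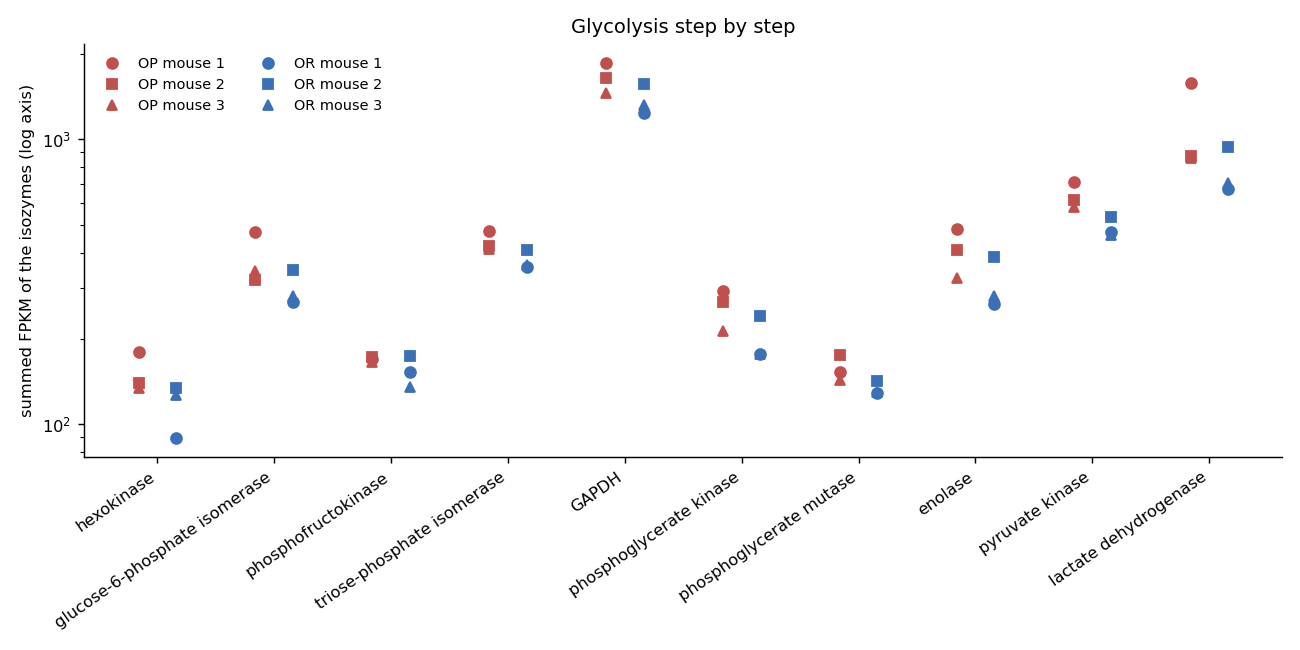
Summed FPKM (log axis) of the isozymes at 10 steps of glycolysis in each mouse, without aldolase and with lactate dehydrogenase. OP mice are red and OR mice blue, with circle, square and triangle for mouse 1, 2 and 3. OP mouse 1 is the highest at 8 steps and OR mouse 1 the lowest at 8, and the groups separate at 4 steps.

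*Adm* encodes adrenomedullin, a vasodilating peptide. It had 8.57, 4.56 and 2.76 FPKM in OP mice 1, 2 and 3 and 1.47, 3.81 and 3.69 FPKM in OR mice 1, 2 and 3. OP mouse 1 was the highest and OR mouse 1 the lowest, while OP mouse 3 lay below OR mice 2 and 3. Its log2 fold change was 0.61 (SE 0.40, 95% interval -0.33 to 1.56, q = 0.945 by limma-trend), the largest of the 10 genes. It was 0.26 without OP mouse 1, 0.30 without OR mouse 1 and 0.93 without OP mouse 3.

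The receptor genes lay in the other direction. All 5 components were below 0 and had a median of -0.88 (log2), or -0.81 with median-of-ratios scaling. With a mouse left out the median ran from -1.13 to -0.64. OR mouse 3 had the highest value of all 5, and without it the median was -0.71 with 1 of 5 above 0. The unadjusted p was below 0.05 for *Calcrl*, *Ramp2* and *Ackr3*, where 3.53% of all genes tested were lower at that p, and 0 of the 5 were called. *Calcrl*, the receptor itself, had 0.75, 1.40 and 2.47 FPKM in OP mice and 2.72, 3.31 and 4.68 FPKM in OR mice, without overlap (log2 fold change -0.88, unadjusted p = 0.0190, q = 0.945 by limma-trend). *Ackr3*, a scavenger receptor, had 2.48 ± 1.08 FPKM (SD, n = 3) in OP and 6.38 ± 2.04 FPKM (SD, n = 3) in OR mice (log2 fold change -1.09, unadjusted p = 0.00643, q = 0.805 by limma-trend). *Ramp2*, which makes *Calcrl* an adrenomedullin receptor, had a log2 fold change of -1.13, and *Ramp1* and *Ramp3* had -0.69 and -0.20. The markers of blood endothelium, where these receptors are known to be expressed, were lower with them: 10 of 12 had an unadjusted p below 0.05, the median was -0.80, and the summed FPKM ranged from 21.4 to 38.3 in OP and from 40.65 to 73.5 in OR mice. Markers of fibroblasts (9 of 11, median -0.64), macrophages (9 of 10, median -0.91) and red blood cells (4 of 4 tested, median -1.27) were also lower at that p. Fewer were lower at that p among markers of smooth muscle (0 of 10, median -0.32), adipocytes (1 of 9, median -0.62) and colon epithelium (0 of 12, median 0.09). The part of these cell types in the receptor values was not tested.

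*Ndrg1* encodes a stress-responsive protein induced by hypoxia and by differentiation. It had 275, 105 and 109 FPKM in OP mice 1, 2 and 3 and 113, 152 and 118 FPKM in OR mice 1, 2 and 3. OP mouse 1 alone was high, and OP mice 2 and 3 were below all OR mice. OP minus OR was 0.21 in log2 (SE 0.36, 95% interval -0.64 to 1.06, q = 0.952 by limma-trend), and it was -0.24 without OP mouse 1. *Ndrg1* made up 79.7% of the FPKM of *Ndrg1* to *Ndrg4* in OP mouse 1 and 47.3% to 64.3% in the others. *Ndrg2*, its neighbour in the family, was lowest in OP mouse 1. *Ndrg1* overlaps 2 other annotated transcripts.

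*Bnip3* encodes a mitophagy receptor of the outer mitochondrial membrane. It had 12.7, 8.72 and 12.2 FPKM in OP mice 1, 2 and 3 and 20.9, 10.7 and 12.3 FPKM in OR mice 1, 2 and 3. OR mouse 1 stood above the other 5 mice, and the log2 fold change was -0.32 (SE 0.27, 95% interval -0.95 to 0.32, q = 0.945 by limma-trend). It was -0.046 without OR mouse 1, -0.16 without OP mouse 2 and -0.498 without OR mouse 2. OR mouse 1 also had the largest summed FPKM of the smooth muscle markers (4188, against 1899 to 2808 in the other mice) and of the adipocyte markers (439, against 85.4 to 299), whose part in the *Bnip3* and *Pfkfb3* values was not tested. *Bnip3l*, the related receptor, made up 63.8% to 76.3% of the FPKM of both. *Bnip3* overlaps another annotated transcript. Of 15 other mitophagy genes, 0 passed an unadjusted p of 0.05, and the median was -0.07, or 0.06 with median-of-ratios scaling. The smallest p values of that list were those of *Fundc1*, *Nipsnap1*, *Phb2* and *Optn*, with log2 fold changes of -0.24, -0.26, -0.17 and 0.15, and *Sqstm1* and *Fkbp8* had the highest levels.

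Of 36 other genes known to be induced through HIF, 35 were tested and 15 were above 0, against 29.9% of all genes. Their median was -0.02, and 0.10 with median-of-ratios scaling, when 24 were above 0, against 51.5% of all genes. One gene, *Vegfa*, which encodes the vascular growth factor, passed an unadjusted p of 0.05 higher in OP mice, and *Flt1*, a VEGFA receptor gene, and *Lox*, which encodes a collagen crosslinker, passed lower. Of all genes, 0.503% passed higher and 3.53% lower. *Vegfa* had 56.6, 47.2 and 43.6 FPKM in OP mice and 27.5, 28.2 and 32.4 FPKM in OR mice, with no overlap (log2 fold change 0.72, unadjusted p = 0.00148, q = 0.645 by limma-trend). *Flt1* had 1.12, 0.88 and 1.36 FPKM in OP mice and 1.64, 2.37 and 3.26 FPKM in OR mice (log2 fold change -0.67, unadjusted p = 0.0190, q = 0.945 by limma-trend). *Lox*, near the filter, had 0.31, 0.20 and 0.64 FPKM in OP mice and 0.63, 1.22 and 0.96 FPKM in OR mice, with overlap. Its log2 fold change was -0.49 (unadjusted p = 0.0408, q = 0.945 by limma-trend), and that of *Ankzf1* was 0.41. *Fam162a*, the highest of the list with *Tpi1*, ranged from 282 to 874 FPKM in OP mice and from 353 to 740.5 FPKM in OR mice. *Car9*, a carbonic anhydrase gene often used as a hypoxia marker, had 37.4 FPKM in OP and 36.6 FPKM in OR mice, and *Pdk1* had 11.9 FPKM in OP and 12.1 FPKM in OR mice. These 2 genes were picked out after their values had been seen. The HIF target list left out the genes of the glycolysis list, such as *Slc2a1*, *Slc16a3* and *Pkm*, except *Tpi1*. It shared *Bnip3l* with the mitophagy list and *Pdk1* and *Pdk3* with the pyruvate list.

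Downstream of glycolysis, 0 of 14 genes of pyruvate import and oxidation passed an unadjusted p of 0.05, with a median of 0.00 and of 0.14 with median-of-ratios scaling. *Pdp1*, *Mpc2*, *Pdk4* and *Pdha1* had log2 fold changes of -0.22, 0.14, 0.44 and -0.26, and *Mpc1* had 132 FPKM in both groups. Of 8 gluconeogenesis genes, 7 were tested, 0 passed an unadjusted p of 0.05, and the median was -0.18, or -0.0524 with median-of-ratios scaling, -0.0214 without OP mouse 1 and -0.350 without OP mouse 3. *Fbp1*, *Pck1*, *Pcx* and *Pck2* had log2 fold changes of -0.78, -0.46, 0.79 and -0.37, and *Fbp2* was the highest, with 145 FPKM in OP and 158 FPKM in OR mice.

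The mouse with the highest value was the same in many of the 10 genes, while the lowest varied. OP mouse 1 had the highest value in 7 of 10 and the lowest in 0, and the lowest value was in OR mouse 1 in 4 genes, in OP mouse 3 in 3, in OP mouse 2 in 2 and in OR mouse 2 in 1. OP mouse 1 had the highest value in 10.1% of all genes. With median-of-ratios scaling the share of all genes rose to 29.4%, and the count stayed at 7 of 10. This count was made after the values had been seen. Among all genes tested, the gene whose centred log2 profile lay nearest to that of *Hif1a* was *Bmp8b*, at a root mean square difference of 0.16 over the 6 mice, and *Hk2* was nearest to *Dhrs9*, at 0.26. The nearest genes were *Cox5a* for *Aldoa* (0.04), *Ndfip2* for *Pgk1* (0.04), *H2al1m* for *Ldha* (0.02), *Mdk* for *Pfkfb3* (0.07) and *Nr1d1* for *Bnip3* (0.05). They were *Smox* for *Adm* (0.15), *H2ac13* for *Egln3* (0.13) and *Dusp5* for *Ndrg1* (0.11).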

How the data were processed

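Colon RNA of 3 OP and 3 OR mice was enriched for mRNA and sequenced in strand-specific libraries on the DNBSEQ platform. After read filtering (SOAPnuke), alignment to a mouse gene set (Bowtie2) and quantification (RSEM), the authors deposited FPKM values to 2 decimals. The versions of Bowtie2 and RSEM differ between the methods and the labels, and the submitters' processing notes name HISAT2 2.0.4 and build GRCm39. Depth per mouse is unknown.

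Groups came from the labels. Genes reaching 0.5 FPKM in 3 or more mice were tested by limma-trend (limma 3.58.1, R 4.3.3) on log2(FPKM + 1), without covariates, and single values by exact permutation tests (SciPy 1.17.1). The authors' DESeq2 needs counts and was not run. The fit was tested on simulated data.

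The 10 genes and all lists were chosen with earlier results of these data known. Genes named besides the 10 are their families and receptors, in each list the 4 with the smallest p and the 2 with the highest mean, and the gene nearest in profile; some genes are not reported here and were left out of the lists, shares and sums, while *Vhl*, *Hif1an* and *Arnt* and the cases marked in the text were chosen after their values were seen. The sums by step, the counts of highest values, the motif search and the plot of epithelial markers were also added after values had been seen. The count of highest values was first made for glycolysis on a hand-picked set of 18 genes, which was dropped for the whole list and is not reported. Replicate numbers belong to different mice: same-numbered mice had correlations of -0.14, -0.16 and 0.07 between their deviations from the group means, so the numbers do not pair them.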

Additional observations from a re-analysis of the deposited data

How the results depend on the processing

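None of the 10 genes was called under any of the 14 alternatives (limma without trend, median-of-ratios scaling, TPM scaling, a pseudocount of 0.1, no filter, at least 1 FPKM in all 6 mice, sample weights, the replicate block and each mouse left out), with q-values from 0.464 to 1.00 over 150 fits. The sign turned in 5 fits, all with a mouse left out: *Hk2* without OP mouse 1 (-0.21), OP mouse 2 (-0.16) or OR mouse 1 (-0.29), *Pfkfb3* without OR mouse 1 (0.045) and *Ndrg1* without OP mouse 1 (-0.24), and the cause was not tested. With a mouse left out, values ranged from -0.29 to 0.98 for *Hk2*, from 0.084 to 1.304 for *Hif1a*, from 0.012 to 0.48 for *Egln3*, from -0.498 to -0.046 for *Bnip3*, from -0.45 to 0.045 for *Pfkfb3* and from -0.24 to 0.45 for *Ndrg1*. The median of the 10 ranged from 0.0753 to 0.503. Of the 10, 0 were higher in the OP group at an unadjusted p below 0.05, but 1 with sample weights and 0 to 2 with a mouse left out.

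Over all genes, 3 were called lower in OP mice. The count was 0 with median-of-ratios scaling, TPM scaling, a pseudocount of 0.1, no filter, at least 1 FPKM in all 6 mice and the replicate block, 5 with sample weights, and 0 to 1 with a mouse left out. Genes higher at an unadjusted p below 0.05 numbered 68, and 159 with median-of-ratios scaling, 133 without a filter, 146 with sample weights and 24 to 178 with a mouse left out. Genes lower at that p numbered 477, and 317 with the strict filter and 223 to 1094 with a mouse left out. With median-of-ratios scaling, list medians moved to 0.35 (glycolysis), 0.0348 (oxygen sensing), 0.10 (HIF targets), 0.0631 (mitophagy) and 0.14 (pyruvate). With a mouse left out, they ranged from 0.16 to 0.28 for glycolysis, from -0.18 to -0.026 for oxygen sensing, from -0.350 to -0.0214 for gluconeogenesis, from -0.0465 to 0.0530 for HIF targets, from -0.11 to 0.0175 for mitophagy and from -0.0889 to 0.0360 for pyruvate. The sums by glycolysis step, an alternative set chosen after seeing the data and without aldolase, kept a higher OP mean at 10 of 10 steps. With 3 mice a group and unknown depth, the intervals of *Hk2* and *Hif1a* leave large changes possible. The p-values rest on the variation between these mice only.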
